A study of Mus musculus with 6 samples.

Results

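The mouse embryonic stem cell lines ♂M-3 and ZM-1 were compared across 19938 genes on 4 of the 6 whole-transcript arrays of the study, 2 biological repeats for each line. The arrays were taken by their titles, and each gene was represented by the probe set that carried its symbol alone and had the highest mean over the 6 arrays. Both lines were made by chromosome transfer and were derived for a study of how the parental pronuclei of the mouse zygote differ in reprogramming capacity. The labels do not spell out the prefixes ♂M and ZM, and they give no strain or age. All cells had been cultured on gelatin in medium that held LIF, PD0325901, which inhibits MEK, and CHIR99021, which inhibits GSK3β, and total RNA was prepared with Trizol. The other line of the study, ♂M-1, was grown and measured in the same way with 2 repeats, and its values are given beside those of the compared lines. Each group is therefore a single line, so a difference between ♂M-3 and ZM-1 cannot be told apart from a difference between any pair of lines. The series' design calls the repeats biological without describing separate cultures, and all p-values rest on the spread between them alone.

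Type I interferons are secreted proteins that bind the receptor chains IFNAR1 and IFNAR2. The receptor activates the kinases JAK1 and TYK2, and these phosphorylate STAT2, which acts with IRF9 at short promoter elements of interferon-stimulated genes. Pluripotent stem cells are known for a weak response to interferon, and differentiated cells such as fibroblasts and macrophages for a strong one. In medium with LIF and both inhibitors, mouse embryonic stem cells hold a naive state marked by Nanog, Esrrb and Zfp42, as opposed to the primed state of the later epiblast, marked by Fgf5 and high Dnmt3a and Dnmt3b.

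Intensities are on the authors' linear scale. The medians of the arrays lay between 67.2 and 71.3 and the lower quartiles between 23.8 and 25.1. No fold is given for a gene whose mean in a line lay below 25.1. The root mean square log2 difference was 0.14 between the ♂M-3 repeats and 0.16 between the ZM-1 repeats, against 0.27 between the line means. The number of arrays limits the precision. The 8 markers of embryonic stem cells were all above the gene median of 94.6 in mean intensity. Their summed intensity was 23773 and 24660 in ♂M-3 and 21603 and 21280 in ZM-1. Markers of other cell types were also measured: the 11 fibroblast markers summed to 7380 and 7401 in ♂M-3 and 8359 and 8417 in ZM-1, with 8 called lower in ♂M-3 and 1 higher. The 7 blood and immune markers summed to 646 and 655 against 705 and 662, with 3 called lower. Among all genes, 8.66% were called higher and 7.2% lower. No probe set read below 1 on any array, so a reading above 0 does not show that a marker was expressed. In every array, 1 fibroblast marker read below 25.1. Fewer cells of a type cannot be told apart from less RNA per cell in these bulk samples.

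Of the 19938 genes, 3162 (15.9%) passed limma's moderated test at a Benjamini-Hochberg adjusted p of 0.05. Of these, 1727 (8.66% of all genes) were higher in ♂M-3 and 1435 (7.2%) were lower. Most differences were small: 2444 of the called genes (77.3%) differed by less than 1.5-fold. The arrays of the compared lines did not overlap for any of the 3162 called genes, and for 11462 of all 19938 genes. An absolute log2 difference of at least 1 was reached by 183 called genes (0.918% of all genes), 126 of them lower in ♂M-3 and 57 higher. In the same fit, ♂M-3 differed from ♂M-1 in 1303 genes (6.54%). With single arrays left out, the count against ZM-1 was 1361 without ♂M-3 replicate 1, 1302 without ♂M-3 replicate 2 and 2077 without ZM-1 replicate 2. Higher genes were 54.6% of the calls as reported, but 45.9% without ♂M-3 replicate 2 and 46.2% without ZM-1 replicate 2, so the majority direction turned; they were 63.6% after median centring of the arrays and 67.5% among genes above the 50th percentile of mean intensity.

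**Figure D1:**
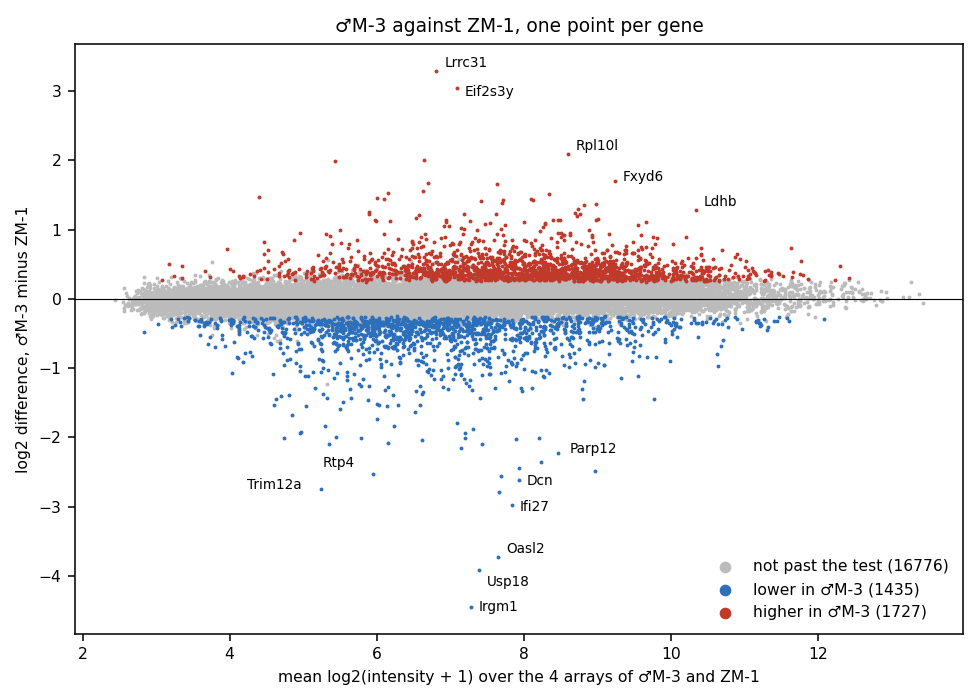
Each point is a gene, with its mean log2(intensity + 1) over the 4 arrays on the horizontal axis and the log2 difference of ♂M-3 minus ZM-1 on the vertical axis; 1727 genes called higher are red and 1435 called lower are blue. The points farthest below 0 are Irgm1, Usp18 and Oasl2, and those farthest above are Lrrc31 and Eif2s3y.

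Gene groups differed in how many of their members were called, beside 8.66% higher and 7.2% lower among all genes. Apart from marker lists, the groups with the largest shares of lower members were antiviral effectors, with 43 of 57 lower and 1 higher, and antigen presentation by MHC class I, with 15 of 24 lower and 0 higher. Nucleic acid sensors followed with 11 of 18 lower and 0 higher, and fibroblast and interstitial matrix genes with 31 of 51 lower and 5 higher. Naive pluripotency genes went the other way, with 10 of 33 higher and 2 lower. The median log2 difference was -0.86 for the effectors, -0.42 for MHC class I, -0.49 for the sensors, -0.39 for the matrix genes and 0.13 for the naive genes. It was 0.0021 over all genes tested and 0.0571 over the 10253 genes whose higher line mean lay above the gene median. All 33 naive genes were among those 10253.

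**Figure D2:**
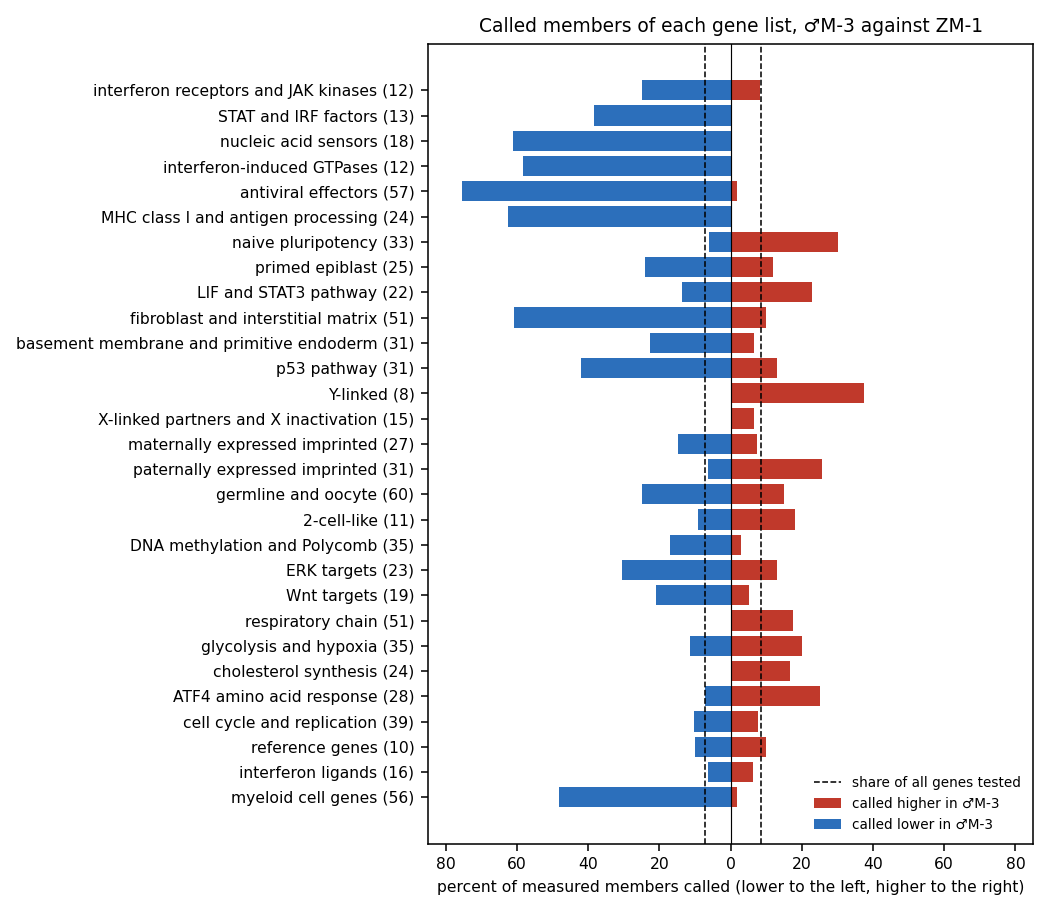
Bars give the percentage of the measured members of each gene list (number measured in parentheses) that were called lower in ♂M-3 (blue, to the left) or higher (red, to the right), and dashed lines give the shares of all genes tested, 7.2% lower and 8.66% higher. The bars of the antiviral effectors, MHC class I genes, sensors and matrix genes reach farthest to the left.

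The promoters of interferon-stimulated genes are shown first because these genes held the largest differences. The element bound by the STAT and IRF9 complex contains the letters GAAANNGAAA, which were searched on both strands from 250 bases before to 50 bases after the transcription start in the RefSeq promoters of GRCm38.p6. Capitals mark each match. The Irgm1 promoter (chr11:48871371-48871670, minus strand) holds 2 overlapping matches, starting 30 and 24 bases before the start. The Ifit1 promoter (chr19:34640639-34640938, plus strand) holds 2 matches on the reverse strand, the Trim12a promoter (chr7:104315446-104315745, minus strand) 1 match on the reverse strand, just after the start, and the B2m promoter (chr2:122147437-122147736, plus strand) 1 forward match.
Irgm1 promoter: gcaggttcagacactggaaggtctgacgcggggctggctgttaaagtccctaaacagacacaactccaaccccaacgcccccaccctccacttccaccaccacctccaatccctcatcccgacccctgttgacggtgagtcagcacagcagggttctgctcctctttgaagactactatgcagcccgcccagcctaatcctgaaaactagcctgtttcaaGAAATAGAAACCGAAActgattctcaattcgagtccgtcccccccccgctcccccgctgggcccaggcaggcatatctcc
Ifit1 promoter: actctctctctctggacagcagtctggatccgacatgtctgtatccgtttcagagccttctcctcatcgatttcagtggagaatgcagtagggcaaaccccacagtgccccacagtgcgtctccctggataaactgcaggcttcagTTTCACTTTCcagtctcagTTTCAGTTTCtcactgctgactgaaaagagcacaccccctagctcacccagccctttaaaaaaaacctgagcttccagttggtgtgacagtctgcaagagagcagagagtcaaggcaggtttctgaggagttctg
Trim12a promoter: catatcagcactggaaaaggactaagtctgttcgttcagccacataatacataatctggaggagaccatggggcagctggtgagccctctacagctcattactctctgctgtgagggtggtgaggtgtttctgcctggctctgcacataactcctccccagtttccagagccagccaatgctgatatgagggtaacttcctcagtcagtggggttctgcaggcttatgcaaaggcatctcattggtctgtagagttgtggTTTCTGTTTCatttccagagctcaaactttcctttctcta
B2m promoter: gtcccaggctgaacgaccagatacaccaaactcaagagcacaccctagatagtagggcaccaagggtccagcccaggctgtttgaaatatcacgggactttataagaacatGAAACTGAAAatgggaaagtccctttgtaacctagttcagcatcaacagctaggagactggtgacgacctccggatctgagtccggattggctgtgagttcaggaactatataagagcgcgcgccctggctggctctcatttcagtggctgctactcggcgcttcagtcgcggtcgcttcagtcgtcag

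The motif was present in 17 of the 34 effectors called lower that had a promoter in the table against 3.99% of all 27025 genes with a promoter there and 3.89% of the 15614 tested genes with one. It was present in 6 of 8 sensors called lower, in 3 of 3 interferon-induced GTPases called lower and in 2 of 12 MHC class I genes called lower, but in 0 of 5 STAT and IRF genes called lower. Over the interferon-related lists together, 27 of 63 members called lower held it (42.9%), and so did 10 of 38 members that did not pass the test (26.3%). Among all genes called, 7.12% of those lower and 2.67% of those higher held it. The promoters of Oasl2, Tap1 and Psmb9 held 0 matches, although all 3 genes were called lower. The Tap1 and Psmb9 windows lie on opposite strands of chromosome 17 and overlap over most of their length, so they are not separate sequences. A match is a string of letters in this window and not a measured binding site.

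The interferon ligands, the start of the pathway, were near the bottom of the intensity range or showed small differences. Ifnb1, the type I interferon that many cells make first, read 12.8 and 14.1 in ♂M-3 and 14.3 and 16.02 in ZM-1 (adjusted p = 0.261), below the lower quartile of every array; it was chosen after its values were seen. Of the 16 ligands measured, 1 was called higher and 1 lower, beside 8.66% higher and 7.2% lower among all genes. Ifnl2, a type III interferon, was higher (145 and 129 against 96.8 and 106, adjusted p = 0.0149) and Ifna9 was lower (59.3 and 56.8 against 73.3 and 86.03, adjusted p = 0.0123). Neither call held with every array left out in turn. That of Ifnl2 failed without ♂M-3 replicate 1 (0.109), without ZM-1 replicate 1 (0.0616), and that of Ifna9 without ♂M-3 replicate 1 (0.0529), without ♂M-3 replicate 2 (0.0842), without ZM-1 replicate 2 (0.0568), with adjusted p-values in parentheses.

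The receptors and kinases differed little. Ifnar1, the low-affinity chain of the type I receptor, measured 334 and 329 in ♂M-3 and 354 and 319 in ZM-1, and the arrays overlapped (adjusted p = 0.912). Jak1 measured 745 and 764 against 688 and 727 (adjusted p = 0.487) and Tyk2 253 and 244 against 209 and 215 (adjusted p = 0.0746); neither passed the test. Of the 12 members of this list, 3 were lower and 1 higher, beside 7.2% lower and 8.66% higher among all genes. The median log2 difference of the list was -0.03. The 1 higher member was Ifnlr1, a chain of the type III interferon receptor, 81.3 and 69.7 against 50.8 and 57.1 (adjusted p = 0.0468), which did not hold without ♂M-3 replicate 1 (0.233), without ♂M-3 replicate 2 (0.0788), without ZM-1 replicate 1 (0.157), without ZM-1 replicate 2 (0.0657). The lower members were other receptor chains. Ifngr2, a chain of the interferon gamma receptor, read 234 and 262 against 334 and 325 (adjusted p = 0.0119, not held without ♂M-3 replicate 1 (0.0934)). Il10rb, shared by the receptors for interleukin 10 and type III interferon, read 48.4 and 51.7 against 65.9 and 67.5 (adjusted p = 0.0084, not held without ♂M-3 replicate 1 (0.0712)). Ifnar2, the high-affinity chain of the type I receptor, read 255 and 260.2 against 318 and 299.9 (adjusted p = 0.0468). It did not hold without ♂M-3 replicate 1 (0.194), without ♂M-3 replicate 2 (0.159), without ZM-1 replicate 1 (0.157), without ZM-1 replicate 2 (0.0713), and with either ♂M-1 array left out (0.0662).

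Among the transcription factors, 5 of 13 were lower in ♂M-3 and 0 higher, beside 7.2% lower and 8.66% higher among all genes. Irf7, the factor that amplifies interferon production, measured 40.1 and 37.4 in ♂M-3 and 161 and 125 in ZM-1, 3.59-fold lower (log2 difference -1.84, SE 0.11, adjusted p = 2.87e-05). Irf9, the DNA-binding partner of the STAT proteins, measured 157 and 183 against 337 and 328, 1.96-fold lower (adjusted p = 0.000203). Both ♂M-3 arrays lay far below both ZM-1 arrays for these genes. Stat2, the partner of IRF9, showed a small difference that did not pass, 376 and 384 against 417 and 411 (adjusted p = 0.356). Nmi, an interferon-induced protein that interacts with STAT factors, measured 38.9 and 46.98 against 115 and 102, 2.49-fold lower (adjusted p = 0.000113), and its binding partner Ifi35 was 1.55-fold lower (adjusted p = 0.00295). In ♂M-1, Irf7 read 49.8 and 49.99 and Irf9 209.7 and 211, and neither differed from ♂M-3 by the test (adjusted p = 0.112 and 0.0796). Stat2 was higher in ♂M-3 than in ♂M-1, which read 275 and 245 (log2 difference 0.55, adjusted p = 0.00529).

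**Figure D3:**
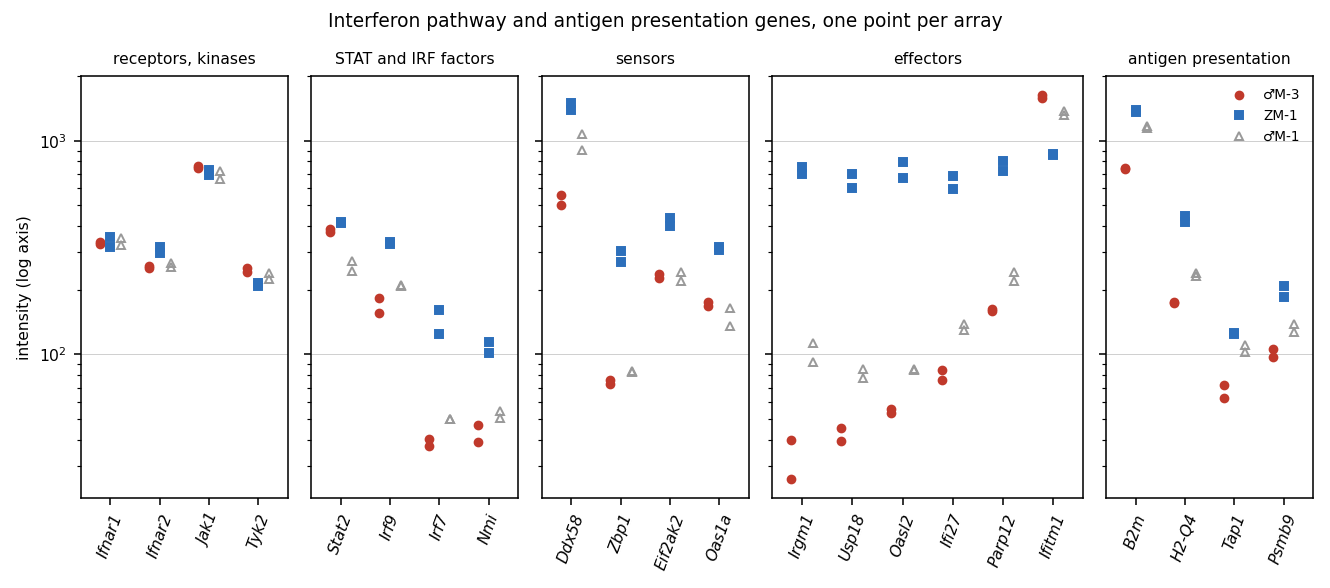
Intensity on a logarithmic axis of genes from 5 groups, ordered from the receptor to the effectors and antigen presentation, with 1 point for each array of ♂M-3 (red circles), ZM-1 (blue squares) and ♂M-1 (open grey triangles). The ♂M-3 and ZM-1 points of Ifnar1 and Jak1 lie close together, those of the effectors lie far apart, and Ifitm1 is the effector with the ♂M-3 points above.

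Of 18 sensors of foreign nucleic acid, 11 were lower in ♂M-3, 0 higher and 7 did not pass. Zbp1, a receptor for Z-form nucleic acid that can start cell death, measured 72.9 and 75.8 in ♂M-3 and 304 and 272 in ZM-1, 3.83-fold lower (log2 difference -1.94, SE 0.082, adjusted p = 2.51e-06). Ddx58, which encodes the RNA sensor RIG-I, measured 503 and 559.7 against 1499 and 1388, 2.72-fold lower (adjusted p = 5.13e-05). Ifih1, which encodes the long double-stranded RNA sensor MDA5, was 2.001-fold lower (adjusted p = 0.00124). Eif2ak2, the kinase PKR that stops translation on double-stranded RNA, was 1.78-fold lower (adjusted p = 0.000364), and Oas1a, an enzyme that makes the activator of RNase L, was 1.81-fold lower (adjusted p = 0.000674). For all 5 sensors the ♂M-3 arrays lay below the ZM-1 arrays, and for every called gene the arrays of the lines did not overlap. The ♂M-1 line read 82.7 and 84.1 for Zbp1, close to ♂M-3 (adjusted p = 0.318), and 907 and 1073 for Ddx58, above ♂M-3 (log2 difference -0.89, adjusted p = 0.00142). Among genes above the 50th percentile of mean intensity, 7 sensors were called lower.

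Interferon-induced GTPases, which attack the vacuoles of intracellular pathogens, were lower in 7 of 12 members and higher in 0, with a median log2 difference of -0.67. The shares of all genes were 7.2% lower and 8.66% higher. Irgm1, a regulator of the other immunity-related GTPases, measured 26.1 and 39.7 in ♂M-3 and 696 and 755 in ZM-1. This was the largest difference among the named genes, 21.9-fold (log2 difference -4.45, SE 0.17, adjusted p = 1.48e-06). In ♂M-1, Irgm1 read 92.4 and 113, between the other lines and above ♂M-3 (log2 difference -1.63, adjusted p = 0.000947). The guanylate-binding proteins Gbp4 and Gbp7 were 2.91-fold and 2.07-fold lower in ♂M-3 than in ZM-1 (adjusted p = 3.44e-05 and 0.000168). Of the 12 members, 4 read below the lower quartile in every array.

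The antiviral effectors formed the largest group of lower genes, 43 of 57, of which 25 had a log2 difference of -1 or less. Usp18, which strips ISG15 from proteins and dampens the receptor, measured 39.3 and 45.1 in ♂M-3 and 699.6 and 602 in ZM-1, 15.1-fold lower (log2 difference -3.92, SE 0.10, adjusted p = 3.21e-07). Oasl2, an oligoadenylate synthetase-like protein, measured 52.99 and 55.6 against 797 and 672, 13.3-fold lower (adjusted p = 3.21e-07). Ifi27, an interferon-induced mitochondrial protein, measured 76.1 and 84.8 against 687 and 595, 7.87-fold lower (adjusted p = 7.28e-07). For each of these the lowest ZM-1 array was several times the highest ♂M-3 array. Ube2l6, the enzyme that conjugates ISG15, was 4.43-fold lower (adjusted p = 3.47e-06) and Parp12, an ADP-ribosyltransferase that limits virus replication, 4.70-fold lower (adjusted p = 1.48e-06). Lgals3bp, a secreted galectin-binding glycoprotein, was 6.11-fold lower (adjusted p = 9.33e-07). Trim12a, a ring-finger protein of the TRIM family, read 15.3 and 12 against 110.2 and 85.6, and Rtp4, a chaperone induced by interferon, 25.4 and 24.1 against 183 and 119.8; their ♂M-3 levels lay at or below the lower quartile, so no fold is given. Ifit1, which binds foreign RNA and was chosen after its values were seen, read 14.4 and 15.8 against 54.2 and 66.1 (adjusted p = 4.90e-05). Usp18 and Ube2l6 lay between the others in ♂M-1: Usp18 read 77.5 and 85.6 and Ube2l6 224 and 208, both above ♂M-3 (adjusted p = 0.00121 and 5.22e-05).

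Exceptions among the effectors lay in the family of Ifitm membrane proteins, which block virus entry and are abundant in stem cells; they were chosen after their values were seen. Ifitm1 was the only effector called higher, 1580.3 and 1632 in ♂M-3 and 860.2 and 868 in ZM-1 (1.86-fold, adjusted p = 0.000121). Ifitm2 did not pass, 2592 and 2529.6 against 2199 and 2237 (adjusted p = 0.0905). Ifitm3 was lower, 2085 and 1969 against 2610.4 and 2484 (adjusted p = 0.0208), which did not hold without ♂M-3 replicate 1 (0.0684), without ♂M-3 replicate 2 (0.14), without ZM-1 replicate 1 (0.0774). Near-identical copies of the family may share probes. Among genes above the 50th percentile of mean intensity, 23 effectors were called lower.

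Antigen presentation by MHC class I, which shows peptides to T cells and is raised by interferon, was lower in 15 of 24 members and higher in 0. B2m, the light chain of these molecules, measured 742 and 740.4 in ♂M-3 and 1361 and 1391 in ZM-1, 1.86-fold lower (log2 difference -0.89, SE 0.072, adjusted p = 0.000113). The class I heavy chains H2-Q4 and H2-Q5 were 2.44-fold and 2.12-fold lower (adjusted p = 2.36e-05 and 0.000137). Tap1 and Tap2, subunits of the peptide transporter, were 1.85-fold and 1.66-fold lower (adjusted p = 0.000303 and 0.000712). Tapbp, which loads peptides, was 1.85-fold lower (adjusted p = 0.000427), and Psmb9, an immunoproteasome subunit, 1.93-fold lower (adjusted p = 0.000272). B2m was also lower in ♂M-3 than in ♂M-1, which read 1171 and 1150.4 (log2 difference -0.65, adjusted p = 0.00122).

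Genes of myeloid cells, chemokines included, were measured beside the interferon group. A list of 56 measured myeloid genes, assembled after values were seen and therefore described without a test as a list, had 27 members called lower, 1 higher and 28 not past the test, beside 7.2% lower and 8.66% higher among all genes. Its intensities summed to 3762 and 3891 in ♂M-3 and 5617 and 5427 in ZM-1. Gpnmb, a glycoprotein of macrophages and other cells, measured 82.2 and 83.2 in ♂M-3 and 346 and 369.9 in ZM-1, 4.29-fold lower (adjusted p = 3.02e-05). C3ar1, the receptor for a complement fragment, measured 26.8 and 26.2 against 117 and 102, 4.01-fold lower (adjusted p = 1.71e-05), and Lyz2, the lysozyme of myeloid cells, 34.1 and 47.5 against 118 and 122 (adjusted p = 0.00653). The chemokines Ccl5, Ccl2 and Ccl7 were 3.46-fold, 2.09-fold and 1.89-fold lower (adjusted p = 0.000119, 0.000173 and 0.000301). The defining leukocyte marker Ptprc was low in both lines, 29.7 and 28.4 against 34.1 and 38.1 (adjusted p = 0.0372), which did not hold without ♂M-3 replicate 1 (0.11), without ♂M-3 replicate 2 (0.191), without ZM-1 replicate 2 (0.166), and without either ♂M-1 array (0.0605). The 1 higher member was H2-Ab1, an MHC class II chain, 37.2 and 42.2 against 28.9 and 28.7 (adjusted p = 0.0103, not held without ♂M-3 replicate 2 (0.0871)), chosen after its values were seen. The part of such cells in the interferon differences was not tested. Above the 50th percentile of mean intensity, 5 myeloid genes were called lower.

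Matrix genes of fibroblasts were the other large group of lower genes, 31 of 51 (20 without ♂M-3 replicate 2). Dcn, which encodes the collagen-binding proteoglycan decorin, measured 96.5 and 112 in ♂M-3 and 596 and 546 in ZM-1, 5.44-fold lower (log2 difference -2.44, SE 0.12, adjusted p = 6.63e-06). Serpinf1, an inhibitor of blood vessel growth, was 2.46-fold lower, and Mmp2, a gelatin-degrading protease, 2.19-fold lower (adjusted p = 2.01e-05 and 5.13e-05). Col6a3 and Col12a1, chains of interstitial collagens, were 2.10-fold and 1.97-fold lower (adjusted p = 4.90e-05 and 8.84e-05). The mesenchymal factor Twist2 was 2.23-fold lower (adjusted p = 4.27e-05). The common markers were less changed: Col1a1 measured 587 and 512 against 810.4 and 827, 1.49-fold lower (adjusted p = 0.00287), and Thy1 251 and 239.5 against 355 and 344, 1.42-fold lower (adjusted p = 0.00259). The summed intensity of the list was 33651 and 33529 in ♂M-3, 40837 and 39400 in ZM-1, and 44004 and 45773 in ♂M-1. The antiviral effectors summed to 14422 and 14385 in ♂M-3, 21558 and 20341 in ZM-1, and 16181 and 15937 in ♂M-1. The fibroblast markers given above summed to 8174 and 8433 in ♂M-1, beside 8359 and 8417 in ZM-1. A link between these sums was not tested. Members called higher, chosen after their values were seen, included Fbln1 (1.63-fold) and Ccdc80 (1.59-fold), both matrix proteins (adjusted p = 0.00122 and 0.00175).

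Naive pluripotency genes were higher in ♂M-3 or did not pass the test, apart from 2 lower members. Zfp42, which encodes the naive marker REX1, measured 673 and 668 in ♂M-3 and 263 and 280.0 in ZM-1, 2.47-fold higher (log2 difference 1.30, SE 0.077, adjusted p = 2.40e-05). In ♂M-1 it read 283 and 299, below ♂M-3 (log2 difference 1.20, adjusted p = 8.64e-05). Tcl1, a coactivator of AKT signalling, was 1.68-fold higher, and Dppa3, which protects maternal methylation in the zygote, 1.77-fold higher (adjusted p = 0.00157 and 0.00438). Prdm14, which represses primed genes, measured 401 and 429.6 against 291 and 264 (adjusted p = 0.00932), which did not hold without ♂M-3 replicate 2 (0.0681). Nanog was 1.22-fold higher, 4082 and 4089.7 against 3394 and 3328 (adjusted p = 0.0384), which did not hold without ♂M-3 replicate 1 (0.148), without ♂M-3 replicate 2 (0.161), without ZM-1 replicate 1 (0.0806), without ZM-1 replicate 2 (0.12). The core factors Pou5f1 (3561 and 3667 against 3872 and 3878), Sox2 (2916 and 2951 against 2979 and 2833), Klf4 (913 and 890.2 against 815 and 808), Esrrb (2176 and 2124 against 1936 and 1986) and Tbx3 (1625 and 1529 against 1582 and 1416) did not pass (adjusted p from 0.207 to 0.937). The 2 lower members were Dppa4, 407 and 424 against 541 and 509 (adjusted p = 0.0176, not held without ♂M-3 replicate 1 (0.113), without ♂M-3 replicate 2 (0.0717), without ZM-1 replicate 1 (0.0701)), and its partner Dppa2, 1725 and 1692 against 2045 and 2057 (adjusted p = 0.0379), named after its values were seen and not held without ♂M-3 replicate 1 (0.134), without ♂M-3 replicate 2 (0.18), without ZM-1 replicate 1 (0.0897), without ZM-1 replicate 2 (0.109), and without either ♂M-1 array (0.0569). With any ♂M-3 or ZM-1 array left out, 4 to 6 naive genes were called higher: 5 without ♂M-3 replicate 1, 4 without ♂M-3 replicate 2, 6 without ZM-1 replicate 1 and 5 without ZM-1 replicate 2.

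Several markers of the primed state were lower in ♂M-3. Of 25 members, 6 were lower and 3 higher, beside 7.2% lower and 8.66% higher among all genes. The median log2 difference of the list was -0.07. Nodal, a TGF-beta family ligand of the epiblast, measured 442 and 469 in ♂M-3 and 722 and 696 in ZM-1, 1.56-fold lower (adjusted p = 0.000937). Fgf5, the classical primed marker, measured 60.4 and 66.3 against 105 and 102, 1.62-fold lower (adjusted p = 0.00247). Dnmt3a, a de novo DNA methyltransferase, measured 255 and 269 against 406 and 407, 1.55-fold lower (adjusted p = 0.000849). The arrays of the lines did not overlap for these genes, as for every called gene. The related enzyme Dnmt3b read 401 and 428 against 583 and 569 (adjusted p = 0.0143, not held without ♂M-3 replicate 1 (0.0915), without ♂M-3 replicate 2 (0.0538)). Their cofactor Dnmt3l read 1516 and 1653 against 1938 and 1894 (adjusted p = 0.0447), not held without ♂M-3 replicate 1 (0.246), without ♂M-3 replicate 2 (0.0885), without ZM-1 replicate 1 (0.123), without ZM-1 replicate 2 (0.0996), and without either ♂M-1 array (0.0657). One higher member was Fgf15, a growth factor gene, 1.51-fold higher (adjusted p = 0.00389).

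Of 22 genes of the LIF pathway, which acts through STAT3, ligand, receptors, kinases and targets together, 5 were higher and 3 lower. Among all genes, 8.66% were higher and 7.2% lower. Bcl3, a nuclear cofactor of NF-kappaB, measured 732 and 794 in ♂M-3 and 354 and 333 in ZM-1, 2.22-fold higher (log2 difference 1.15, SE 0.085, adjusted p = 7.46e-05). Socs3, the feedback inhibitor of the LIF receptor, measured 621 and 594 against 424 and 393, 1.49-fold higher (adjusted p = 0.00259). Stat3 itself did not pass, 1086 and 1053 against 1073 and 1028 (adjusted p = 0.861). Myc, a proto-oncogene also counted among the ERK and Wnt targets, was 1.49-fold lower (adjusted p = 0.00582). Immediate targets of ERK, the kinase downstream of MEK, were lower in 7 of 23 members and higher in 3, beside the same shares of all genes. Among them Phlda1 was 1.62-fold lower and Egr1 1.46-fold lower (adjusted p = 0.00262 and 0.00422), whereas Ier3, an early response gene, was 1.83-fold higher (adjusted p = 0.000278).

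The p53 pathway list had 13 of 31 members lower and 4 higher, with a median log2 difference of -0.22; 7 were lower without ♂M-3 replicate 1 and 8 without ♂M-3 replicate 2. Plk2, a stress-induced kinase, measured 198 and 214 in ♂M-3 and 445 and 454 in ZM-1, 2.18-fold lower (adjusted p = 0.000234), and Btg2, an antiproliferative gene, 1.82-fold lower (adjusted p = 0.000958). Plk2 was lower than in ♂M-1 too, which read 412 and 511 (log2 difference -1.15, adjusted p = 0.000479). Eda2r, an X-linked receptor of the TNF family, went the other way, 349.9 and 322 against 138 and 119, 2.60-fold higher (adjusted p = 4.54e-05), and Ccng2, a cyclin of growth-arrested cells, was 1.91-fold higher (adjusted p = 0.00019). The list also holds Tap1, counted above among the antigen presentation genes. Trp53, which encodes p53, and its targets Cdkn1a and Bax were listed but not measured, since no probe set used here carried their symbol alone. Among all genes, 7.2% were lower and 8.66% higher.

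The genes with the largest higher values in ♂M-3 belonged to no single list. Lrrc31, a leucine-rich repeat protein, measured 324 and 379 in ♂M-3 and 33.3 and 36.4 in ZM-1, 9.81-fold higher (log2 difference 3.29, SE 0.10, adjusted p = 7.28e-07). Prex2, an exchange factor for RAC, measured 194 and 206 against 49.2 and 48.8, 4.01-fold higher (adjusted p = 1.48e-06). Fxyd6, a regulator of the sodium-potassium pump, measured 984 and 1209 against 325 and 341, 3.27-fold higher (adjusted p = 3.99e-05). In each case ♂M-1 read near ZM-1: 35.2 and 30.5 for Lrrc31, 47.9 and 50.8 for Prex2 and 340.2 and 294 for Fxyd6. All 3 were higher in ♂M-3 than in ♂M-1 by the test (log2 difference 3.38, 1.996 and 1.78, adjusted p = 1.25e-06, 4.54e-06 and 8.61e-05). Tmem64, a transmembrane protein, St8sia1, the enzyme that makes the ganglioside GD3, and Slc30a2, a zinc exporter, were 2.86-fold, 2.93-fold and 2.71-fold higher (adjusted p = 1.69e-05, 8.92e-05 and 8.61e-05). Timm8a2, a mitochondrial import chaperone, was 3.17-fold higher (adjusted p = 1.03e-05).

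Among the largest lower differences outside the interferon and matrix groups, Pttg1, the securin that holds sister chromatids together until anaphase, measured 136 and 127 in ♂M-3 and 786 and 589 in ZM-1, 5.13-fold lower (adjusted p = 1.71e-05). Fv1, a restriction factor of murine leukaemia virus derived from a retrovirus, measured 34.8 and 32.1 against 138 and 153, 4.24-fold lower (adjusted p = 1.91e-06). The ♂M-1 arrays read 398 and 346 for Pttg1 and 97.7 and 94.1 for Fv1, between the other lines and above ♂M-3 (adjusted p = 0.000431 and 5.22e-05). Olig2, a neural progenitor factor, measured 49.95 and 52.4 against 163 and 160.3, 3.11-fold lower (adjusted p = 4.63e-05). Its neighbour Olig1 was 2.52-fold lower (adjusted p = 8.15e-05).

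Sex chromosome genes were examined next. Of the 8 Y-linked list members measured, 3 were higher and 0 lower. Eif2s3y, a translation factor subunit, measured 396 and 386 in ♂M-3, 47.3 and 45.6 in ZM-1 and 19.9 and 23.5 in ♂M-1. It was 8.27-fold higher than in ZM-1 (log2 difference 3.05, SE 0.09, adjusted p = 5.55e-07). Uty, a histone demethylase homologue, read 384 and 390.5 in ♂M-3, 246 and 229.7 in ZM-1 and 16.6 and 25.1 in ♂M-1. Its call against ZM-1 (adjusted p = 0.0162) did not hold without ♂M-3 replicate 1 (0.0713), without ♂M-3 replicate 2 (0.0828), without ZM-1 replicate 2 (0.0634). Uty was also higher than in ♂M-1 (adjusted p = 3.94e-06), where its mean lay below the lower quartile, so only levels are given. The remaining member, Uba1y, was 1.52-fold higher than in ZM-1 (adjusted p = 0.00192). Kdm5d was at the lower quartile in both lines, 22.7 and 22.4 against 25.4 and 31.1 (adjusted p = 0.144). The X-linked partners did not pass: Eif2s3x read 2949.8 and 3068 against 2756 and 2723 (adjusted p = 0.256), Kdm6a 541 and 513 against 539 and 520.4 (adjusted p = 0.96) and Kdm5c 845 and 791 against 760.0 and 761 (adjusted p = 0.416). Xist, the silencing RNA of the X chromosome, was low in both lines, 90.4 and 82.6 against 85.8 and 111 (adjusted p = 0.374). The 1 member of the X-linked list called higher was Klhl13, an adaptor of a ubiquitin ligase, 831 and 798 against 332 and 298, 2.58-fold (adjusted p = 2.83e-05). Over the whole X chromosome, 88 of 739 genes were higher (11.9%) and 37 lower (5.01%), beside 8.66% and 7.2% of all genes.

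Germ cell genes were called in both directions, 15 of 60 lower and 9 higher, beside 7.2% lower and 8.66% higher among all genes. The median log2 difference of the list was -0.03. Rpl10l, a testis-enriched copy of the ribosomal protein gene Rpl10, measured 770.1 and 830.2 in ♂M-3 and 179 and 196 in ZM-1, 4.26-fold higher (adjusted p = 6.59e-06), and the related Rpl39l, a copy of another ribosomal gene, was 2.39-fold higher (adjusted p = 0.00168). Rpl10 itself did not pass, 8107 and 7886 against 7505 and 7505 (adjusted p = 0.445); signal of such copies may be shared between similar probes. Pramel13, a member of the PRAME-like family, was 3.17-fold higher (adjusted p = 9.00e-05). Obox6, an oocyte homeobox gene, was lower, 79.98 and 88.5 against 551 and 452, 5.88-fold (adjusted p = 5.70e-05), and Rnf17, a tudor protein of the germ line, was lower, 146 and 146 against 588 and 597, 4.03-fold (adjusted p = 1.14e-06). Elobl, an elongin B-like gene, was 6.94-fold lower (adjusted p = 4.79e-05). The lines split differently for these genes. Rpl10l read 188 and 158 in ♂M-1, below ♂M-3 (adjusted p = 1.52e-05), whereas Rnf17 read 137 and 141 there, near ♂M-3 (adjusted p = 0.673). The germ cell count called lower was 9 without ♂M-3 replicate 1 and 7 among genes above the 50th percentile of mean intensity.

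Among imprinted genes, which are read from 1 parental copy, 8 of 31 paternally expressed genes were higher and 2 lower, and 2 of 27 maternally expressed genes were higher and 4 lower, beside 8.66% higher and 7.2% lower among all genes. Plagl1, a zinc finger gene of an imprinted network, measured 689 and 586 in ♂M-3 and 288 and 268 in ZM-1, 2.28-fold higher (log2 difference 1.19, SE 0.11, adjusted p = 0.00018). Sfmbt2, a Polycomb-related gene, was 1.77-fold higher and Mest, a hydrolase of the mesoderm, 1.63-fold higher (adjusted p = 0.000334 and 0.00357). Rian, a maternally expressed noncoding RNA, measured 147 and 127 against 79.6 and 69.2, 1.83-fold higher (adjusted p = 0.000674), whereas its neighbour Meg3 did not pass, 1277 and 1200.3 against 1043 and 994 (adjusted p = 0.0518). Igf2, a paternally expressed growth factor, did not pass either, 846 and 803 against 702 and 712 (adjusted p = 0.115). The called imprinted genes named here were all higher, and those called lower are counted only, although lower calls were the majority among the maternally expressed genes.

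**Figure D4:**
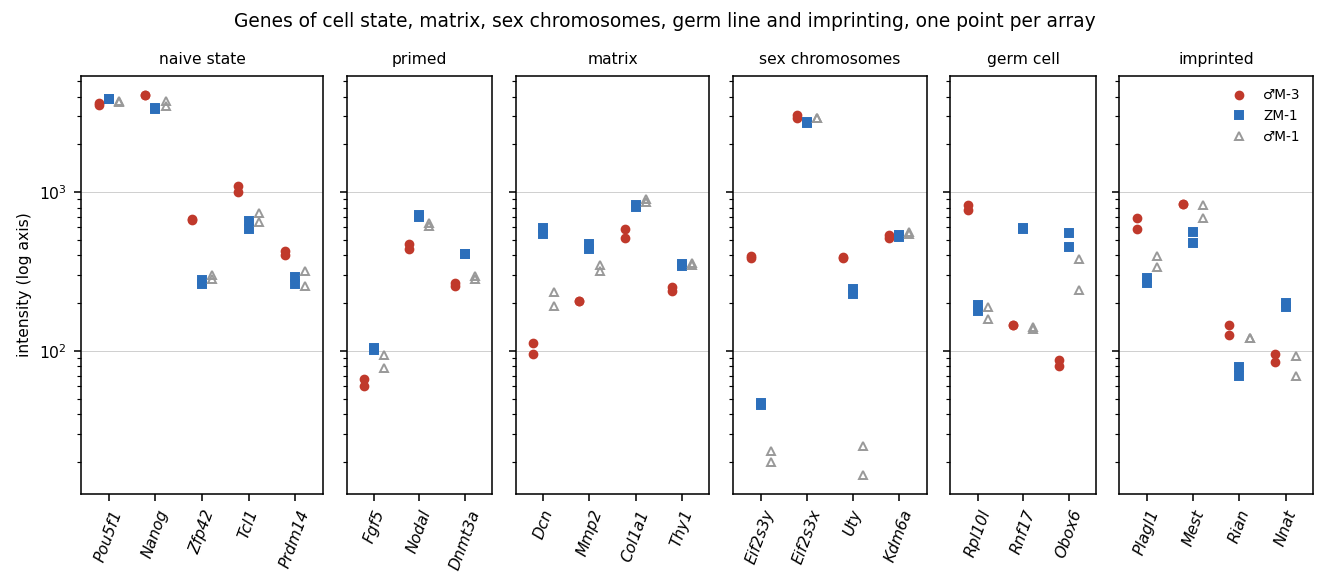
Intensity on a logarithmic axis of genes of 6 groups, with 1 point for each array of ♂M-3 (red circles), ZM-1 (blue squares) and ♂M-1 (open grey triangles). The ♂M-3 and ZM-1 points of Pou5f1 lie close together, Zfp42 and Eif2s3y lie above in ♂M-3, and Dcn, Rnf17 and Obox6 lie above in ZM-1.

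Called genes were also grouped by chromosome position, using the gene order of GRCm38.p6. In 67 stretches at least 3 neighbouring measured genes were called in the same direction, 40 higher and 27 lower, holding 218 of 19851 genes with a position; the longest held 5. Of the 67, 53 held only 3 genes. Among all genes 8.66% were called higher and 7.2% lower, and how many stretches such shares would give by themselves was not tested. Only some of the stretches are described. Several lower stretches were families of interferon genes. Ifi207, Ifi203, Ifi202b and Ifi205, DNA-sensing PYHIN genes on chromosome 1, were all lower, and the next measured genes on each side did not pass. Ifi207 had a log2 difference of -1.59. The other 3 had ♂M-3 means below 25.1 and are given as levels: Ifi203 read 15.1 and 23.3 against 83.2 and 83.6, Ifi202b 11.3 and 13.4 against 58.1 and 47.8 and Ifi205 20.3 and 19.4 against 71.2 and 75.6. Among the Schlafen genes on chromosome 11, Slfn9, Slfn8, Slfn10-ps and Slfn2 had log2 differences of -1.10, -1.50, -1.51 and -0.63, and Slfn5, also with a ♂M-3 mean below 25.1, read 20.4 and 26.8 against 49.8 and 49.9. Psmb9, Tap1, Psmb8 and Tap2 lie beside each other on chromosome 17 (-0.95, -0.89, -0.32 and -0.73), as do Parp14, Dtx3l and Parp9 on chromosome 16 (-1.38, -1.02 and -1.33). The call of Psmb8 (adjusted p = 0.0333) did not hold without ♂M-3 replicate 2 (0.219), without ZM-1 replicate 1 (0.0558), without ZM-1 replicate 2 (0.124), and without either ♂M-1 array (0.056). Family members of such stretches can share probes.

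**Figure D5:**
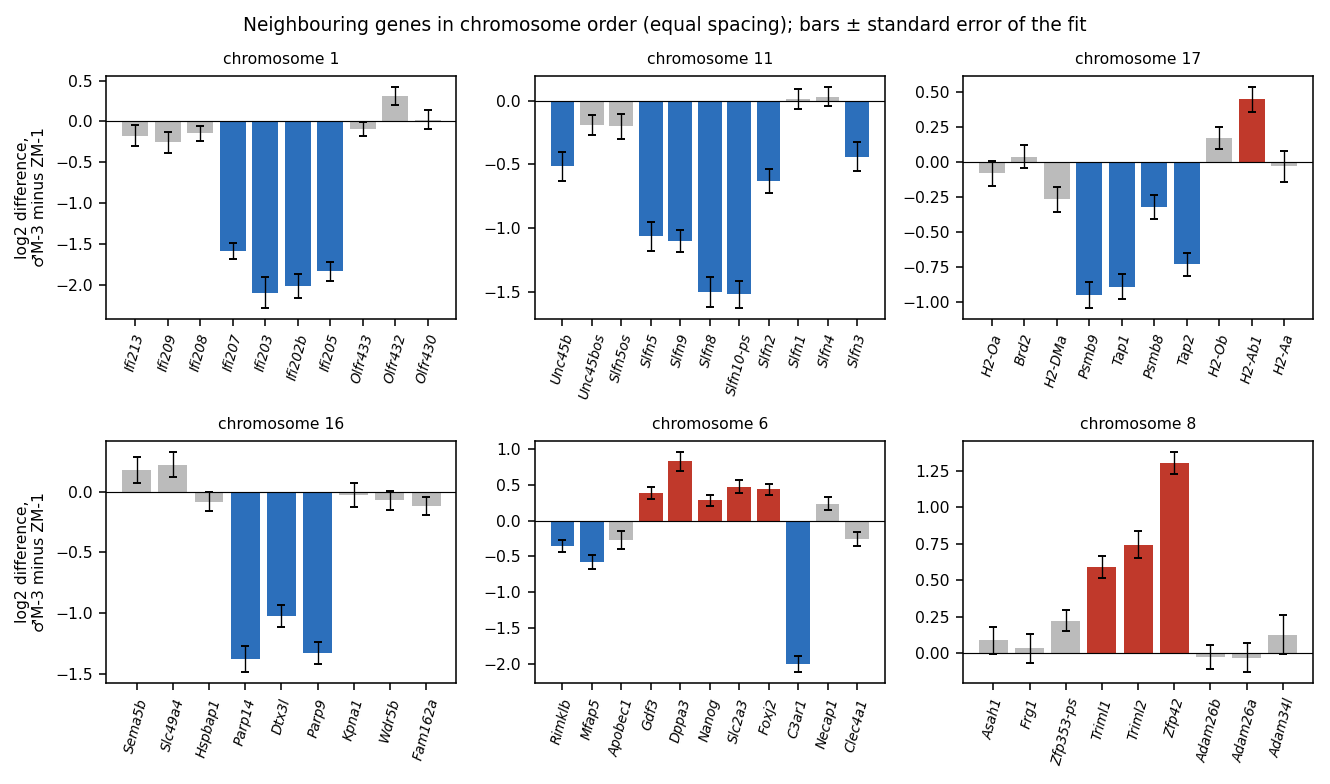
The log2 difference of ♂M-3 minus ZM-1, with the standard error of the fit, for 6 groups of neighbouring genes and up to 3 measured genes on each side in chromosome order, colored red where called higher, blue where called lower and grey where not past the test. The called bars of Ifi203, Ifi202b, Ifi205 and Slfn5 rest on ♂M-3 means below 25.1. The 4 lower groups and the 2 higher groups stop at flanking genes that mostly did not pass.

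Pluripotency genes lay in 2 higher stretches. On chromosome 6, Gdf3, Dppa3, Nanog, Slc2a3 and Foxj2 were all higher, with log2 differences of 0.39, 0.82, 0.28, 0.47 and 0.43. Slc2a3 is a glucose transporter and Gdf3 a TGF-beta family ligand; the call of Gdf3 did not hold without ♂M-3 replicate 1 (0.0987), without ZM-1 replicate 2 (0.055), that of Slc2a3 without ♂M-3 replicate 1 (0.0759), and that of Nanog is described above. The next gene, C3ar1, had a log2 difference of -2.003. On chromosome 8, Triml1, Triml2 and Zfp42 were higher by 0.59, 0.74 and 1.30 (adjusted p = 0.00121, 0.00115 and 2.40e-05).

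A further stretch held miRNA genes. The probe sets of Mir19a, Mir20a and Mir19b-1, hairpins of 1 cluster on chromosome 14, were higher in ♂M-3; such a probe set reads RNA of the hairpin and not the mature miRNA. The mature sequences are shown because the hairpins fall into seed families, with the seed (bases 2 to 8) in capitals. miR-19a-3p (chr14:115044048-115044070) and miR-19b-3p (chr14:115044358-115044380) share a seed, as do miR-20a-5p (chr14:115044183-115044205) and miR-17-5p (chr14:115043684-115043706), all on the plus strand (RefSeq, GRCm38.p6).
miR-19a-3p: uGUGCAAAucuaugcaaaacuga
miR-19b-3p: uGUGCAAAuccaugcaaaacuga
miR-20a-5p: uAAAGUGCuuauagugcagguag
miR-17-5p: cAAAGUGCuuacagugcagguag

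Mir20a measured 53.99 and 64.99 in ♂M-3 and 38.8 and 29.04 in ZM-1 (adjusted p = 0.00677, not held without ♂M-3 replicate 2 (0.0555)). Mir19a measured 48.04 and 42.7 against 31.3 and 34.1 (adjusted p = 0.0162, not held without ♂M-3 replicate 1 (0.112), without ZM-1 replicate 1 (0.0646)). Mir19b-1 measured 75.96 and 71.8 against 55.6 and 43.9 (adjusted p = 0.0161, not held without ♂M-3 replicate 1 (0.0906), without ♂M-3 replicate 2 (0.0637), without ZM-1 replicate 2 (0.0713)). Their neighbours Mir17 (45.9 and 50.3 against 40.5 and 25.6, adjusted p = 0.0616) and Mir18 (113 and 119 against 101 and 87.6, adjusted p = 0.0525), chosen after their values were seen, did not pass. Their ♂M-3 arrays lay above the ZM-1 arrays, but the arrays of the compared lines did not overlap for 11462 of the 19938 genes.

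The respiratory chain had 9 of 51 members higher and 0 lower, with a median log2 difference of 0.10; 3 were higher without either ♂M-3 replicate and 5 without either ZM-1 replicate. Of the 51 members, 50 had a higher line mean above the gene median, and the median log2 difference over all 10253 such genes was 0.0571. For this list and those below, the shares of all genes were 8.66% higher and 7.2% lower. Cyc1, a cytochrome subunit, was 1.56-fold higher and Ndufa9, a complex I subunit, 1.49-fold higher (adjusted p = 0.00286 and 0.00259). Glycolysis and hypoxia genes were higher in 7 of 35 members and lower in 4. Ldhb, a lactate dehydrogenase chain, measured 2088 and 1974 in ♂M-3 and 798 and 863 in ZM-1, 2.44-fold higher (adjusted p = 3.39e-05), and Hk2, a hexokinase, was 1.44-fold higher (adjusted p = 0.00329). Stc2, a secreted glycoprotein among the ATF4 targets, was 1.69-fold higher (adjusted p = 0.00138), with 7 of 28 members of that list higher and 2 lower. Cholesterol synthesis genes were higher in 4 of 24 members and lower in 0. Basement membrane and primitive endoderm genes were lower in 7 of 31 members and higher in 2; among the latter Lama1, a laminin chain, measured 466 and 442 against 219.6 and 209.5, 2.11-fold higher (adjusted p = 0.0002). DNA methylation and Polycomb genes were lower in 6 of 35 and higher in 1, Wnt targets lower in 4 of 19 and higher in 1, and genes of the 2-cell-like state lower in 1 of 11 and higher in 2. Cell cycle genes were called in 3 of 39 members higher and 4 lower, close to the shares of all genes, and of the 10 reference genes 1 was higher and 1, B2m, lower.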

How the data were processed

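Per the labels, 6 arrays were scanned, and the authors deposited a linear intensity for each probe set. The submitters' processing notes name GCOS version 1.4; the sources used here do not state how background, summarisation or normalization were handled. Of 35556 probe sets, 21789 carried 1 gene symbol, 1621 several and 12146 were absent from the probe table. The probe set with the highest mean was kept for each of 19938 genes. Values were used as log2(intensity + 1). A limma 3.58.1 model (R 4.3.3) with a mean for each line used the 6 arrays together (residual degrees of freedom 3, prior degrees of freedom 6.01). ♂M-3 was compared with ZM-1 and with ♂M-1 by two-sided tests, adjusted by Benjamini-Hochberg over all genes at 0.05. Fold changes are on the log2(intensity + 1) scale and understate those of dim genes. The fit was tested on simulated data.

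A rule set which genes could be named: the 15 largest differences in each direction with an absolute log2 difference of at least 1, no overlap of arrays and a mean above the gene median in the higher line (predicted genes and small RNAs counted only), up to 8 called members of each list, a fixed group of state, interferon, sex chromosome, imprinted and matrix genes, and members of stretches of at least 3 neighbouring called genes. The rule gave 417 genes, and only some of them are described. It does not fix which of the 417 these are. In all, 151 genes are named here, including those marked as chosen after their values were seen. The comparison, lists and members were chosen with earlier results of these data known. Some genes that carry several symbols in the probe table were not analysed here.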

Additional observations from a re-analysis of the deposited data

How the results depend on the processing

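Calls were recomputed under 17 other settings. The count of called genes was 3162 as reported, 2750 with only the 4 arrays of the compared lines, 3464 after median centring, 2948 after quantile normalization, 3781 and 3572 with pseudocounts of 16 and 64, 3562 and 3377 among genes above the 25th and 50th percentile, and 4168 with an intensity trend and robust prior. With 1 array left out it ranged from 1302 to 2750, the count called higher from 597 to 1481 and the count called lower from 665 to 1269. Genes with an absolute log2 difference of at least 1 numbered 57 with a pseudocount of 64 and 108 above the 50th percentile. Above that percentile, 23 effectors, 7 sensors, 7 germ cell genes and 5 myeloid genes were called lower, and members below it were not tested. In that fit 2281 of 9969 genes were called higher and 1096 lower. The respiratory chain had 14, 16, 17 and 20 members higher with pseudocounts of 16 and 64, above the 50th percentile and with the trend, and 3 to 9 with 1 array left out. Leaving out 1 array gave 20 to 27 matrix, 7 to 13 p53 and 9 to 15 germ cell genes lower and 4 to 9 naive genes higher.

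The replicate numbers did not pair the arrays: deviations of same-numbered arrays correlated at -0.035, 0.067 and -0.11 between the lines. With the replicate block, 2769 genes were called. With the crossed pairing, chosen after seeing the data, 2916 were called. Of the 129 called genes named, 107 kept the call in every setting in which they were tested, and 0 of the named genes reversed. The cause of the changes was not tested.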
